A study of Homo sapiens with 6 samples.

Results

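Sam68 silencing was compared with control silencing in LNCaP, a human prostate cancer line whose growth responds to androgen. The comparison takes 4 of the 6 libraries of the series. The siSAM68 group has 2 libraries of cells silenced for Sam68, and the siCTRL group has 2 libraries of cells given the RNA labelled siSCR. Another group of 2 libraries, siXRN2, was silenced for the nuclear exonuclease XRN2. It helps set the estimate of the spread and the choice of features tested, and it is compared with siCTRL and directly with siSAM68. All groups were the same cell line, received 50 nM of small interfering RNA in repeated transfections and were collected at 48 hours. The labels call the 2 libraries of a group biological replicates and say nothing of a batch. Every listed gene and polyadenylation site was taken, 1944 genes in the expression table and 4903 sites of 3118 genes in the site table, with 506 genes in both.

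Sam68, encoded by KHDRBS1, is a STAR-family protein that binds A- and U-rich stretches of RNA and is known for its part in alternative splicing and in the choice of 3′ ends. A pre-mRNA is cleaved a short way after a polyadenylation signal, most often the hexamer AATAAA or its main variant ATTAAA, and many genes carry several such sites. A site early in the 3′ UTR (proximal) gives a shorter message than one further on (distal), and a site in an intron can cut off part of the coding sequence. The assay, 3′READS, reads the very end of polyadenylated RNA, so that each read marks a cleavage site. The study asked how Sam68 affects the choice of these sites in prostate cancer cells, with the cell cycle as its wider theme.

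Depth over the listed genes was 674072 and 788203 reads in siSAM68, 597911 and 1599559 in siXRN2 and 244708 and 447363 in siCTRL, so the control libraries were the shallowest, replicate 1 above all. Of 15 prostate epithelial markers 11 were in the expression table, among them KLK3 and TMPRSS2, and their summed level was 3261 and 2418 scaled RPM in siSAM68 libraries, against 3333 and 3031 in siCTRL libraries. None of 19 markers of immune, stromal, endothelial, basal or neuroendocrine cells was listed, which in a selected list is not a measured 0. Both tables are selected: in the authors' deposited table, 57.6% of genes and 56.4% of sites had a score of at least 1.3 in size for siSAM68 against siCTRL, so shares of changed genes below hold for these lists and adjusted p-values can be too small. Levels are given as scaled RPM, RPM (deposited reads per 1e6) with each library brought to the same total over the listed genes. In bulk libraries, fewer cells expressing a gene and less RNA per cell cannot be told apart.

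KHDRBS1 RNA itself was far lower in the silenced cells. It had 53.2 and 27.2 scaled RPM in siSAM68 libraries, against 608 and 750.1 in siCTRL libraries, resting on 104 and 62 reads in siSAM68 and 432 and 974 in siCTRL. The siXRN2 libraries had 893 and 566. The groups were far apart, with a log2 change of -4.11 for siSAM68 over siCTRL (SE 0.28, limma adjusted p = 7.19e-07), and the call held whichever library was left out.

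Of the 1938 genes tested, 1133 (58.5%) passed an adjusted p under 0.05, of which 654 (33.7%) rose and 479 (24.7%) fell after Sam68 silencing. Changes were mostly moderate. The median log2 change was 0.91 among the genes that rose and -0.78 among those that fell. A change of at least 2-fold was reached by 252 genes that rose and 109 that fell, and one of at least 4-fold by 24 and 6. The siSAM68 and siCTRL libraries did not overlap in 1545 genes (79.7%). The split depends on the scaling: median-of-ratios scaling shifted the median log2 change of all genes, 0.13, to near 0 and gave 527 that rose and 546 that fell, and correction for GC content gave 498 and 498. Fewer genes were called without siSAM68 replicate 1 (481), siSAM68 replicate 2 (331) or siCTRL replicate 1 (443), and 200 of the 1133 passed whichever single library was left out.

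**Figure D1:**
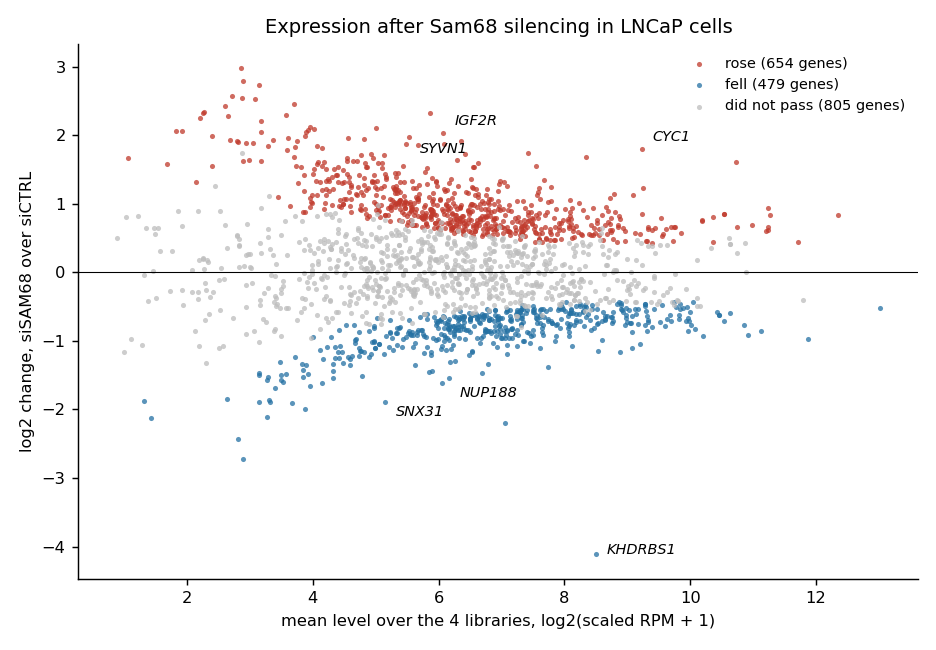
Log2 change of siSAM68 over siCTRL (vertical axis) against mean level over the 4 libraries as log2(scaled RPM + 1) (horizontal axis), 1 point per gene, red where the gene rose (654), blue where it fell (479) and grey where it did not pass. KHDRBS1 lies alone at -4.11, and most other called genes lie within 2 log2 units of 0.

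The change differed with the base composition of the transcripts, mainly in the class of highest GC content. The median log2 change was 0.31, 0.35, 0.19 and -0.44 in 4 equal classes of genes from lowest to highest GC content, with 186, 195, 159 and 110 genes that rose and 60, 72, 129 and 213 that fell. By mean level it was 0.21, 0.33, 0.08 and -0.17 from the lowest to the highest class, and by transcript length 0.10, 0.09, 0.17 and 0.16. Medians after GC correction are therefore given for several gene groups below, and the part of GC content in the changes was not tested.

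Among the 15 largest rises by the naming rule, CYC1 and CALM2 had the most reads. CYC1, cytochrome c1 of respiratory complex III, had 949 and 913 scaled RPM in siSAM68 libraries, against 239 and 295 in siCTRL libraries (log2 change 1.80, SE 0.18, limma adjusted p = 5.19e-05). CALM2, which encodes the calcium sensor calmodulin and has near-identical copies elsewhere in the genome, had 237 and 285 scaled RPM in siSAM68 libraries, against 59.0 and 102 in siCTRL libraries (log2 change 1.73, SE 0.25, limma adjusted p = 0.000919). In both genes each siSAM68 library was more than 2 times the higher siCTRL library.

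CAPRIN2 and IGF2R rose most of the 15. CAPRIN2, an RNA-binding protein, had 45.5 and 55.1 scaled RPM in siSAM68 libraries, against 16.9 and 6.89 in siCTRL libraries (log2 change 2.10, SE 0.36, limma adjusted p = 0.00199). IGF2R, the receptor that carries mannose 6-phosphate-tagged enzymes to lysosomes and removes IGF2, had 104 and 111 scaled RPM in siSAM68 libraries, against 22.6 and 28.5 in siCTRL libraries (log2 change 2.04, SE 0.25, limma adjusted p = 0.000296). SYVN1, the ubiquitin ligase HRD1 of endoplasmic reticulum quality control, had 76.6 and 68.3 scaled RPM in siSAM68 libraries, against 15.5 and 20.1 in siCTRL libraries (log2 change 1.98, SE 0.27, limma adjusted p = 0.000695). In these 3 genes both siSAM68 libraries were more than 2 times the higher siCTRL library. RIOK2, a kinase of small ribosomal subunit maturation, had 40.3 and 47.2 scaled RPM in siSAM68 libraries, against 9.74 and 11.6 in siCTRL libraries, and EXOSC5, a core subunit of the RNA exosome, had 48.5 and 42.8 scaled RPM in siSAM68 libraries, against 11.2 and 15.4 in siCTRL libraries (1.94 and 1.72 on the log2 scale). VDAC3, a channel of the mitochondrial outer membrane, rose by 1.87 and the kinase TBK1 of innate immune signalling by 1.72. HAUS1 of the spindle-associated augmin complex (1.86), the DNA repair dioxygenase ALKBH2 (1.96, from 3 and 20 siCTRL reads), GTPBP2 (1.87), the glycosyltransferase GALNT3 (1.71), the transition zone gene TCTN1 (1.71) and the chromatin remodelling subunit BAZ1A (1.67) completed the 15 largest rises. None of the 15 lost its call when any 1 library was left out.

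Genes of the nuclear pore, of sorting and of mitochondrial metabolism were among the 15 largest falls. NUP188, a scaffold protein of the nuclear pore, had 34.8 and 36.3 scaled RPM in siSAM68 libraries, against 95.7 and 117 in siCTRL libraries (log2 change -1.55, SE 0.24, limma adjusted p = 0.00146). SNX31, a sorting nexin, had the largest fall of the 15, with 12.2 and 13.6 scaled RPM in siSAM68 libraries, against 81.6 and 30.9 in siCTRL libraries (log2 change -1.89, SE 0.38, limma adjusted p = 0.00437), although its 2 siCTRL libraries differed by more than 2 times. MMAB, which makes the active form of vitamin B12 in mitochondria, had 52.1 and 55.1 scaled RPM in siSAM68 libraries, against 170.4 and 132 in siCTRL libraries, a log2 change of -1.47. PRR7 (-1.61), the noncoding ST7-OT3 (-1.52), the organic anion transporter gene SLCO5A1 (-1.43), ZNF329 (-1.36), BTBD1 (-1.33), ACBD6 (-1.29), PRR5 of the mTORC2 complex (-1.26), the neuronal pentraxin receptor NPTXR (-1.25), the adhesion receptor LPHN1 (-1.24) and POLD2 of DNA polymerase delta (-1.23) also fell. Without siCTRL replicate 1 the calls of SLCO5A1, NPTXR and POLD2 ended, without siSAM68 replicate 1 those of PRR5, NPTXR and POLD2, and without siSAM68 replicate 2 that of SLCO5A1.

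**Figure D2:**
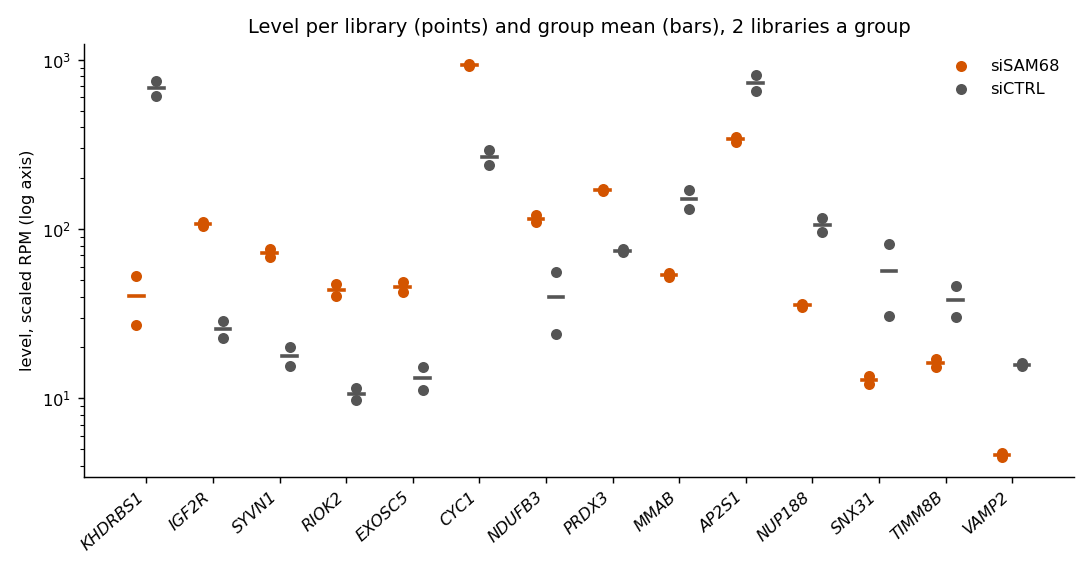
Level of 14 genes in scaled RPM (logarithmic vertical axis), each library as a point and each group mean as a short bar, with siSAM68 (orange) left of siCTRL (grey), 2 libraries a group. The groups do not overlap in any of the 14 genes, which were chosen with their values known. Over all genes they do not overlap in 79.7%. The siSAM68 pair is the closer pair in most of the 14.

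Genes of the mitochondrial respiratory chain changed in both directions. Of 16 complex I subunits and assembly factors, 7 rose and 5 fell, beside 33.7% and 24.7% over all genes. Their median log2 change was 0.38, beside 0.13 over all genes, and 0.16 after GC correction. NDUFB3, of the membrane arm, had 111 and 121 scaled RPM in siSAM68 libraries, against 24.1 and 55.5 in siCTRL libraries (log2 change 1.63, SE 0.31, limma adjusted p = 0.00361). NDUFB4, of the same arm, had 742 and 749 scaled RPM in siSAM68 libraries, against 332 and 353 in siCTRL libraries (log2 change 1.12, SE 0.17, limma adjusted p = 0.00113), and NDUFA12 rose by 0.93. NDUFS7 of the matrix arm fell by 0.96 on the log2 scale, and NDUFS6 fell by 0.82. Of 8 genes of complexes II to IV, 4 rose, CYC1, the complex III assembly factor BCS1L (0.72), COX8A (0.69) and UQCRC2 (0.56), and UQCR10 fell (-0.72).

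The ATP synthase genes split evenly, 5 that rose and 5 that fell among 10 tested, beside 33.7% and 24.7% over all genes. However, ATP5J2 and the readthrough ATP5J2-PTCD1 share all their reads and are 1 measurement. ATP5H, of the peripheral stalk, had 156 and 143 scaled RPM in siSAM68 libraries, against 46.4 and 87.7 in siCTRL libraries (log2 change 1.21, SE 0.27, limma adjusted p = 0.00531), while ATP5I had 822 and 786 scaled RPM in siSAM68 libraries, against 1837 and 1287 in siCTRL libraries (log2 change -0.93, SE 0.19, limma adjusted p = 0.00463). Calls in these 3 respiratory groups rest on few libraries: 4 of 12 complex I genes (NDUFA12, NDUFB3 and NDUFB4 among them), 1 of 5 in complexes II to IV (CYC1) and 3 of 10 ATP synthase genes (ATP5D, ATP5H and ATP5I) passed whichever library was left out.

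Mitochondrial import and outer membrane genes rose in 7 of 12 cases and fell in 2, beside 33.7% and 24.7% over all genes, with a median log2 change of 0.63 (0.44 after GC correction). TOMM70A, a receptor for incoming precursor proteins, had 149.8 and 164 scaled RPM in siSAM68 libraries, against 80.2 and 76.3 in siCTRL libraries (log2 change 0.99, SE 0.21, limma adjusted p = 0.00462). DNAJC19 of the import motor rose by 1.01. The small chaperones of the intermembrane space went the other way: TIMM8B had 15.2 and 17.1 scaled RPM in siSAM68 libraries, against 46.4 and 30.1 in siCTRL libraries and TIMM13 had 529 and 602 in siSAM68 libraries, against 1033 and 919.5 in siCTRL libraries (-1.16 and -0.79 on the log2 scale). Of the 9 calls, those of VDAC3 and TOMM70A alone held whichever library was left out, while TIMM8B and TIMM13 did not pass without siCTRL replicate 1 or siSAM68 replicate 1.

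Mitochondrial ribosomal proteins were divided, 6 that rose and 6 that fell of 19 tested, beside 33.7% and 24.7% over all genes. Their median log2 change was 0.01. MRPL49 had 82.8 and 85.7 scaled RPM in siSAM68 libraries, against 26.6 and 37.8 in siCTRL libraries (log2 change 1.38, SE 0.25, limma adjusted p = 0.00253), and MRPL9 rose by 1.05. MRPL21 (-0.77), MRPS16 (-0.71) and MRPL51 (-0.71) fell. Only MRPL49 of these 12 passed whichever library was left out.

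Cytosolic ribosomal proteins, by contrast, lay mostly above 0, in 20 of 23 genes (median log2 change 0.53, 0.33 after GC correction). Of the 23, 14 rose and 3 fell, beside 33.7% and 24.7% over all genes. RPL19 had 529 and 622 scaled RPM in siSAM68 libraries, against 265 and 273 in siCTRL libraries (log2 change 1.09, SE 0.17, limma adjusted p = 0.0015). RPL41 rose by 0.88. RPL34 (-0.75), RPL28 (-0.50) and RPL9 (-0.46) fell. The 17 calls depend on the scaling: with median-of-ratios scaling the median was 0.40 and 9 of the 23 genes were called, with GC correction 8, and RPL19 and RPL41 alone passed whichever library was left out. Ribosomal protein genes have many processed copies, and how reads that map to several places were counted is not given in the sources used here.

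Translation factors changed in both directions, 8 that rose and 7 that fell of 19, beside 33.7% and 24.7% over all genes. EIF2AK3, the kinase PERK that slows translation under endoplasmic reticulum stress, had 37.8 and 27.2 scaled RPM in siSAM68 libraries, against 8.31 and 20.1 in siCTRL libraries (log2 change 1.24, SE 0.40, limma adjusted p = 0.0176), and EIF2A rose by 0.93 and EIF4G2, a scaffold of cap-independent initiation, by 0.67. The initiation complex subunits EIF3I (-0.66) and EIF3H (-0.55) and EIF6, which keeps large ribosomal subunits apart from small ones (-0.56), fell. None of the 15 called factors passed with every single library left out, and each of them lost its call without siSAM68 replicate 1, siSAM68 replicate 2 or both.

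Proteasome genes rose in 6 of 11 cases and fell in 1, beside 33.7% and 24.7% over all genes. Their median log2 change was 0.56, and 0.30 after GC correction. PSMD6, a lid subunit of the regulatory particle, had 409.8 and 407 scaled RPM in siSAM68 libraries, against 209 and 226 in siCTRL libraries (log2 change 0.91, SE 0.17, limma adjusted p = 0.00368). The assembly chaperone PSMD5 rose by 1.06 and the core subunit PSMA3 by 0.77, whereas the core subunit PSMB4 fell (-0.61). PSMD6 alone passed whichever library was left out. Ubiquitin ligases and conjugating enzymes were split, 11 that rose and 10 that fell of 40, close to the background share. FBXO46 (1.33), FBXO30 (1.32) and UBE2N, the conjugating enzyme for K63-linked chains (1.22), rose most, and FBXO41 (-1.52), TRIM36 (-0.95) and UBE2Z (-0.91) fell most. Of these 6 only UBE2Z kept its call with every single library left out; FBXO46 and UBE2N lost theirs without siCTRL replicate 1 alone.

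Redox defence genes rose in 10 of 19 cases and fell in 5, beside 33.7% and 24.7% over all genes. Their median log2 change was 0.61, and 0.38 after GC correction. CAT, which encodes catalase, had 136 and 139 scaled RPM in siSAM68 libraries, against 38.1 and 57.8 in siCTRL libraries (log2 change 1.54, SE 0.26, limma adjusted p = 0.00192). PRDX3, the mitochondrial peroxiredoxin, had 168 and 173 scaled RPM in siSAM68 libraries, against 75.9 and 73.2 in siCTRL libraries (log2 change 1.18, SE 0.20, limma adjusted p = 0.00188). PARK7, the redox-sensitive protein DJ-1, had 2583 and 2531 scaled RPM in siSAM68 libraries, against 738 and 946 in siCTRL libraries (1.61 on the log2 scale). In all 3 genes the lower siSAM68 library was more than 2 times the higher siCTRL library. SOD2, the mitochondrial superoxide dismutase, had 12.2 and 20.2 scaled RPM in siSAM68 libraries, against 38.1 and 32.3 in siCTRL libraries (log2 change -1.11, SE 0.34, limma adjusted p = 0.0143), and GSTZ1 (-0.98) and PRDX2, a cytosolic peroxiredoxin (-0.76), fell too. CAT, PRDX3, PARK7 and GSTZ1 passed whichever library was left out, and SOD2 did not pass without siCTRL replicate 1 or siSAM68 replicate 1.

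Genes of endoplasmic reticulum stress and folding rose in 7 of 13 cases and fell in 2, beside 33.7% and 24.7% over all genes. Besides EIF2AK3, the chaperone DNAJB9 (1.22) and the disulfide isomerase PDIA4 (0.78) rose. PDIA2 had 0.429 and 2.20 scaled RPM in siSAM68 libraries, against 8.31 and 13.2 in siCTRL libraries (log2 change -2.42, SE 0.53, limma adjusted p = 0.00505), on 1 and 5 reads in siSAM68 and 6 and 17 in siCTRL, and was the only call of this group that held with every single library left out. After GC correction 5 of the 13 genes were called, against 9 as measured.

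Chromatin remodelling and Mediator genes rose in 12 of 24 cases and fell in 5, beside 33.7% and 24.7% over all genes. Their median log2 change was 0.55, and 0.36 after GC correction. ARID5B, a DNA-binding partner of a histone demethylase, had 42.9 and 33.2 scaled RPM in siSAM68 libraries, against 8.31 and 16.1 in siCTRL libraries (log2 change 1.62, SE 0.36, limma adjusted p = 0.00541). INO80C, a subunit of the INO80 remodelling complex, had 34.8 and 38.5 scaled RPM in siSAM68 libraries, against 12.6 and 10.0 in siCTRL libraries (log2 change 1.62, SE 0.31, limma adjusted p = 0.0034). MED19, of the Mediator complex, rose too, with 43 and 44 reads in siSAM68 libraries, against 1 and 7 in siCTRL libraries, too few for a fold. BRD7, a subunit of a SWI/SNF complex, had 31.1 and 39.3 scaled RPM in siSAM68 libraries, against 73.3 and 87.0 in siCTRL libraries (log2 change -1.17, SE 0.25, limma adjusted p = 0.00505), and MED29 (-0.88) and the histone methyltransferase gene SETDB2 (-0.87) fell. The list was drawn by symbol patterns, so it also holds the actin-related proteins ACTR2, which rose, and ACTR3, which fell, both of actin branching. Calls of ARID5B, INO80C, MED19 and BRD7 held with every single library left out, while MED29 failed without siCTRL replicate 1 and SETDB2 without siCTRL replicate 2, and both without either siSAM68 replicate.

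Zinc finger transcription factors were called about as often as all genes, 12 that rose and 10 that fell of 39, and their median of 0.28 was -0.03 after GC correction. ZFP1 had 7.08 and 13.0 scaled RPM in siSAM68 libraries, against 28.1 and 27.7 in siCTRL libraries and ZNF395 had 9.23 and 4.77 in siSAM68 libraries, against 18.3 and 20.8 in siCTRL libraries (-1.44 and -1.42). The 3 largest rises rest on so few control reads that no fold is given: ZNF500 had 21 and 21 reads in siSAM68 libraries and 0 and 3 in siCTRL libraries, ZSCAN21 had 18 and 13 against 1 and 1, and ZNF498 had 21 and 30 against 1 and 5. ZNF329 and ZNF500 passed whichever library was left out, ZFP1 and ZSCAN21 failed without siSAM68 replicate 1 alone and ZNF395 without siSAM68 replicate 2 alone.

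Splicing factors and RNA-binding proteins of the spliceosome, KHDRBS1 among them, were called in 28 of 40 cases, 15 that rose and 13 that fell. Over all genes 33.7% rose and 24.7% fell. RBM12B had 34.3 and 36.3 scaled RPM in siSAM68 libraries, against 9.74 and 20.8 in siCTRL libraries (log2 change 1.25, SE 0.35, limma adjusted p = 0.0108). DHX15, the helicase that takes spliceosomes apart, had 121 and 139 scaled RPM in siSAM68 libraries, against 57.9 and 51.5 in siCTRL libraries (log2 change 1.23, SE 0.22, limma adjusted p = 0.00267), and RBM33 rose by 0.94. PCBP1, a poly(C)-binding protein of an intronless gene with related copies, had 111 and 96.2 scaled RPM in siSAM68 libraries, against 193 and 193 in siCTRL libraries (log2 change -0.90, SE 0.20, limma adjusted p = 0.00541). The helicase DDX42 fell too (-0.86). DHX15 and KHDRBS1 alone passed whichever library was left out, PCBP1 and DDX42 failed without siSAM68 replicate 2 alone, and 23 of the 40 genes were called after GC correction.

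Of 5 cleavage and polyadenylation genes, 2 rose and none fell, beside 33.7% and 24.7% over all genes. RBBP6, a subunit of the cleavage factor, had 131 and 129 scaled RPM in siSAM68 libraries, against 66.2 and 81.6 in siCTRL libraries (log2 change 0.82, SE 0.21, limma adjusted p = 0.00858), and PABPC4, a cytoplasmic poly(A)-binding protein, had 178 and 175 scaled RPM in siSAM68 libraries, against 50.7 and 96.2 in siCTRL libraries (log2 change 1.33, SE 0.28, limma adjusted p = 0.00466). PABPC4 passed whichever library was left out, and RBBP6 did not pass without siCTRL replicate 1 or either siSAM68 replicate. Of 11 genes of RNA decay, 4 rose, among them EXOSC5, the helicase UPF1 of nonsense-mediated decay (1.16), ZC3H15 (1.22) and the endonuclease ZC3H12A (1.01), and LSM5 fell (-0.71). EXOSC5 and UPF1 held with every single library left out. Of 7 long noncoding RNAs, 3 rose, LINC00116 (2.04, from 3 and 7 siCTRL reads), SNHG10 (1.34) and MALAT1 (0.61), of which LINC00116 alone passed whichever library was left out.

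Vesicle trafficking was the largest group, with 56 genes, of which 18 rose and 22 fell, beside 33.7% and 24.7% over all genes. Its median log2 change was -0.31 (-0.50 after GC correction). Besides SNX31, VAMP2, a SNARE of secretory vesicles, had 4.51 and 4.77 scaled RPM in siSAM68 libraries, against 15.5 and 16.1 in siCTRL libraries (log2 change -1.58, SE 0.38, limma adjusted p = 0.00671). Coat and adaptor genes were looked at after their values were seen. AP2S1, the small subunit of the clathrin adaptor AP-2, had 351 and 326 scaled RPM in siSAM68 libraries, against 814 and 652 in siCTRL libraries (log2 change -1.11, SE 0.18, limma adjusted p = 0.00159). ARF5, a small GTPase of the Golgi, had 232 and 226 scaled RPM in siSAM68 libraries, against 541 and 482 in siCTRL libraries (log2 change -1.15, SE 0.20, limma adjusted p = 0.0023). AP1S1 fell by 1.23 on the log2 scale, from few reads, while the related AP1M2 and AP1B1 fell by 0.54 and 0.68. COPB1 of the COPI coat had 138 and 127 scaled RPM in siSAM68 libraries, against 50.7 and 74.7 in siCTRL libraries (log2 change 1.09, SE 0.24, limma adjusted p = 0.00505), and the coat subunits COPA (0.78) and COPG (0.61) rose as well. The Rab effector RAB11FIP1 (1.18) and RAB3GAP2 (1.20) rose too. SNX31, VAMP2, ARF5, AP2S1, COPB1 and RAB11FIP1 passed whichever library was left out, and AP1S1 failed without siCTRL replicate 1 or siSAM68 replicate 2. COPA and RAB3GAP2 lost their calls without siSAM68 replicate 2 alone.

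Transporters of the solute carrier and ABC families fell in 12 of 37 cases and rose in 7. Over all genes 24.7% fell and 33.7% rose. SLC50A1, a sugar transporter, had 106 and 105 scaled RPM in siSAM68 libraries, against 245 and 185 in siCTRL libraries (log2 change -1.002, SE 0.22, limma adjusted p = 0.00505), and SLC43A1, a carrier of large neutral amino acids, fell by 0.94 on the log2 scale. SLC25A5, the adenine nucleotide carrier ANT2, had 569 and 634 scaled RPM in siSAM68 libraries, against 197 and 372 in siCTRL libraries (log2 change 1.15, SE 0.24, limma adjusted p = 0.00466), and SLC25A20, the carnitine carrier, rose by 1.08. SLC50A1 and SLC25A5 passed whichever library was left out. SLC43A1 failed without siCTRL replicate 1 or siSAM68 replicate 2, and SLC25A20 without siCTRL replicate 2 or either siSAM68 replicate.

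Cell cycle genes did not move as 1 group. Of 17 genes of mitosis and G2/M, 7 rose and 3 fell, beside 33.7% and 24.7% over all genes. Their median log2 change was 0.43, and 0.35 after GC correction. KIF20A, a kinesin of cytokinesis, had 28.1 and 38.0 scaled RPM in siSAM68 libraries, against 8.31 and 16.9 in siCTRL libraries (log2 change 1.38, SE 0.36, limma adjusted p = 0.00858). PRC1, which bundles the microtubules of the central spindle, rose with 28 and 30 reads in siSAM68 libraries, against 1 and 4 in siCTRL libraries, and CENPV with 27 and 33 in siSAM68 libraries, against 3 and 3 in siCTRL libraries, too few for a fold. The centromere gene CENPM had 28.1 and 27.5 scaled RPM in siSAM68 libraries, against 64.7 and 47.8 in siCTRL libraries, and MAD2L2 had 96.1 and 83.5 in siSAM68 libraries, against 165 and 154 in siCTRL libraries (-0.97 and -0.82). Of 25 genes of G1/S and DNA replication, 4 rose and 5 fell, a share called of 36% beside 58.5% over all genes, a difference that was not tested. MCM6 of the replicative helicase had 68.0 and 88.8 scaled RPM in siSAM68 libraries, against 26.6 and 37.0 in siCTRL libraries (log2 change 1.28, SE 0.28, limma adjusted p = 0.00531), whereas its partner MCM5 had 146 and 171 scaled RPM in siSAM68 libraries, against 252 and 244 in siCTRL libraries (log2 change -0.65, SE 0.23, limma adjusted p = 0.0272). PRC1, CENPV and MCM6 passed whichever library was left out, KIF20A failed without siCTRL replicate 1 or siSAM68 replicate 2, MAD2L2 without siSAM68 replicate 2 alone, CENPM without siCTRL replicate 1 or either siSAM68 replicate, and MCM5 failed without any 1 of the siSAM68 or siCTRL libraries.

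CDK inhibitors and p53 targets rose in 4 of 13 cases and fell in 2, beside 33.7% and 24.7% over all genes. CDKN1B, the inhibitor p27, had 101 and 109.7 scaled RPM in siSAM68 libraries, against 45.0 and 63.9 in siCTRL libraries (log2 change 0.96, SE 0.24, limma adjusted p = 0.00716), and the death receptor gene FAS rose by 1.55. TP53I3 had 9.23 and 9.18 scaled RPM in siSAM68 libraries, against 26.6 and 30.9 in siCTRL libraries (log2 change -1.54, SE 0.34, limma adjusted p = 0.00508) and alone passed whichever library was left out. FAS lost its call without siSAM68 replicate 2 and CDKN1B without that library or siCTRL replicate 1.

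Androgen-responsive genes were called less often than the background share of 58.5%, 7 of 28 tested, 3 that rose and 4 that fell. The difference in shares was not tested. TSC22D1 had 180.5 and 168 scaled RPM in siSAM68 libraries, against 60.4 and 82.4 in siCTRL libraries (log2 change 1.29, SE 0.21, limma adjusted p = 0.00175), and STEAP2 rose by 0.70. KLK2 had 121 and 66.8 scaled RPM in siSAM68 libraries, against 198 and 146 in siCTRL libraries (log2 change -0.91, SE 0.27, limma adjusted p = 0.014), and its neighbour KLK3, prostate-specific antigen, had 980.4 and 488 in siSAM68 libraries, against 1439 and 1085 in siCTRL libraries (-0.85). The 2 siSAM68 libraries differed by about as much as the groups did for both kallikreins, and their calls ended without siSAM68 replicate 2 or siCTRL replicate 1, that of KLK3 also without siCTRL replicate 2. TSC22D1 passed whichever library was left out.

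Growth factor signalling genes rose in 5 of 16 cases and fell in 2, beside 33.7% and 24.7% over all genes. Besides IGF2R, IGFBP3, a secreted binding protein of insulin-like growth factors, had 168 and 112 scaled RPM in siSAM68 libraries, against 57.9 and 37.8 in siCTRL libraries (log2 change 1.53, SE 0.30, limma adjusted p = 0.00377). The kinase genes MAP3K3 (1.50), MAPK14, or p38 alpha (1.20), and MTOR (0.69) rose, and the phosphoinositide 3-kinase genes PIK3CD (-0.91) and PIK3R1 (-0.76) fell. IGF2R, IGFBP3 and MAP3K3 passed whichever library was left out. Of 9 genes of sterol and fatty acid synthesis, ELOVL5 (0.90), DHCR7 (0.82) and SREBF1 (0.71) rose and 2 fell, SCD (-0.53) among them, none of these with every single library left out. Of 7 interferon genes none rose, and STAT2 (-0.82), IRF3 (-0.78) and PSMB4, which the symbol pattern also takes in, fell, again none of them with every single library left out.

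**Figure D3:**
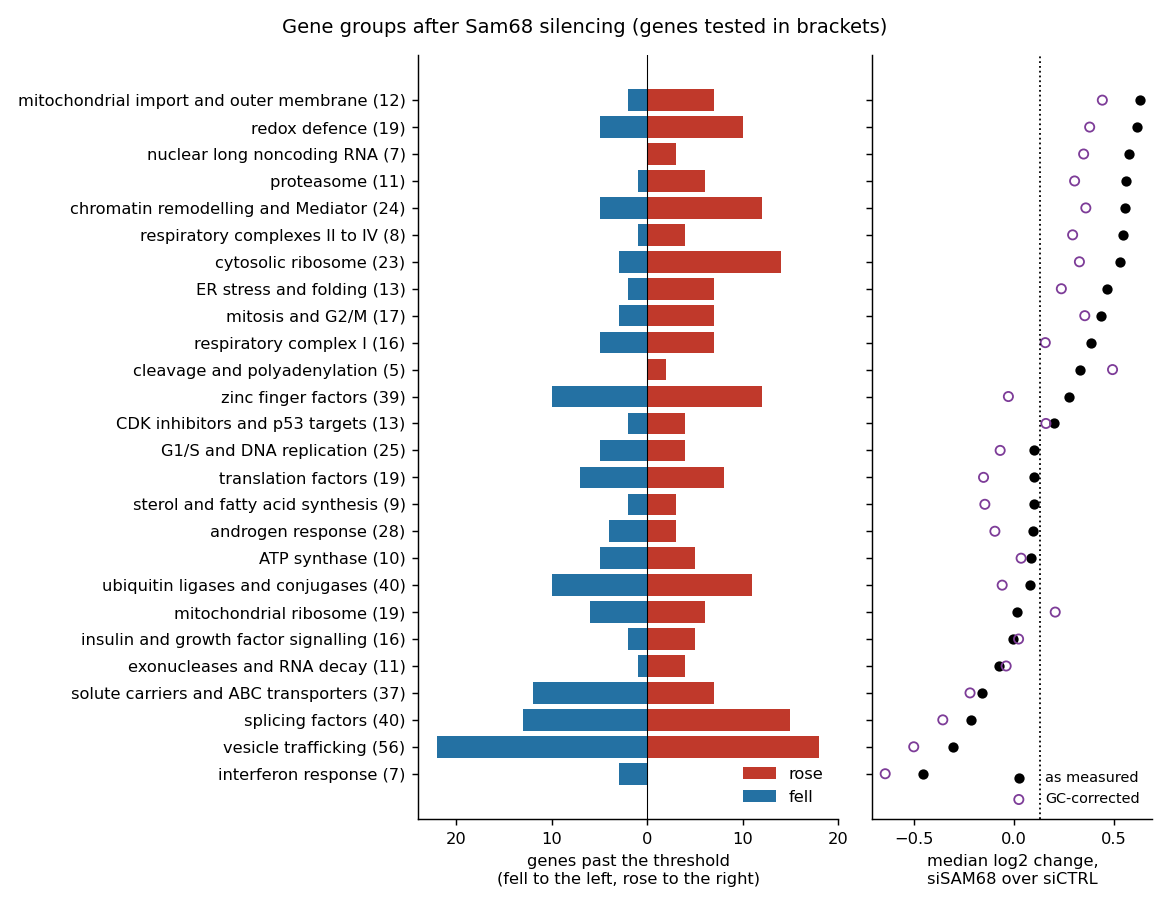
Gene groups, with the number of genes tested in brackets, ordered by median change. Left, genes that fell (blue, to the left) and rose (red, to the right); right, the median log2 change of siSAM68 over siCTRL as measured (filled) and after GC correction (open), with the median of all genes, 0.13, as a dotted line. Import and redox genes have the highest medians, 0.63 and 0.61, and interferon and trafficking genes the lowest, -0.46 and -0.31.

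Usage of a polyadenylation site is its percent of all reads of the gene in a library. Codes F, M and L were read by their order along the strand, as first, middle and last in a 3′ UTR. S was taken as a single site, Ic or Is as lying in an intron and E as lying in an exon. The order along the strand does not check these other readings. Of 4862 sites tested, 712 (14.6%) passed, in 611 genes, of which 422 (8.68%) gained and 290 (5.96%) lost usage after Sam68 silencing. Gains of at least 20 percentage points were seen at 208 sites and losses of that size at 182. Groups did not overlap at 3672 sites (75.5%). Of the gains, 205 were listed at 0 in both siCTRL libraries, and 105 of the losses at 0 in both siSAM68 libraries. Values were missing in a library for 11 called sites.

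These calls rest on both siSAM68 libraries. Without siSAM68 replicate 1 or replicate 2, limma called 0 sites, with 1452 and 1444 at an unadjusted p under 0.05, where 2315 stood at that level with all libraries. Without siCTRL replicate 1 there were 232 calls, and 446 and 440 without 1 or the other siXRN2 library. Shallow control libraries limit the values as well, with 797 and 544 sites listed at 0 in siCTRL and 505 and 453 in siSAM68. Read counts could be estimated only for genes in both tables, and 590 tested sites lie in genes with at least 20 reads in every library. Of the 712 calls, 60 are among these, 41 gained and 19 lost. A separate fit on the 590 sites alone, with its own adjustment, called 326, 187 gained and 139 lost, with the 60 among them.

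Gains outnumbered losses at last sites as over all sites, where 8.68% gained and 5.96% lost. Of 1235 last sites 114 gained and 56 lost, of 974 first sites 61 gained and 56 lost, and of 1555 middle sites 143 gained and 92 lost. The median difference, siSAM68 minus siCTRL, was 4.25 percentage points at last sites, -3.88 at first sites and -1.07 at middle sites. In the separate fit on genes with at least 20 reads 68 last sites gained and 34 lost, while 40 first sites gained and 51 lost. Intronic sites coded Ic were even, 55 gained and 57 lost of 606, and those coded Is had 27 gained and 16 lost of 245. Sites of 1 gene share a total, so a gain at one is met by losses at others.

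By signal, sites with the canonical hexamer AATAAA gained in 232 and lost in 141 of 2608 cases, and those with ATTAAA in 71 and 48 of 820. Sites that the table calls A-rich were called most often, 42 of 173 or 24.3%, beside 14.6% over all sites. The other classes had 14.1% to 14.5%. A-rich sites lost more often than they gained, 25 against 17, with a median difference of -5.50 percentage points. Over all sites 8.68% gained and 5.96% lost. Median usage of A-rich sites was 8.3% in siSAM68 and 15% in siCTRL, and the differences between classes were not tested. Sites with another variant of the signal gained in 75 and lost in 58 of 942 cases, and those with no signal in 27 and 18 of 319.

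**Figure D4:**
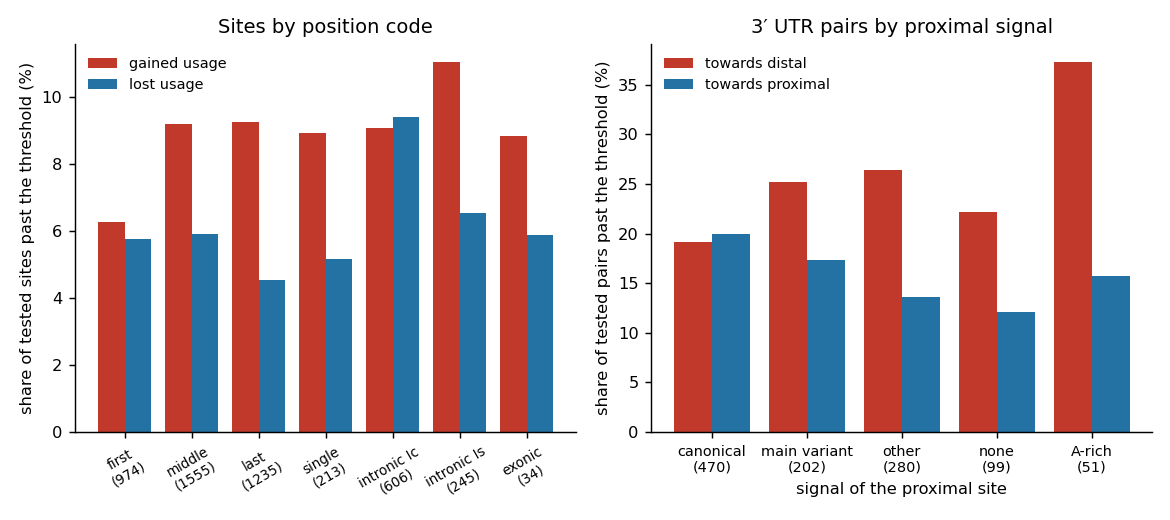
Left, share of tested sites (%) that gained (red) or lost (blue) usage in siSAM68 against siCTRL, by position code, with the number tested in brackets. Right, share of tested 3′ UTR pairs (%) that shifted towards the distal (red) or the proximal site (blue), by the signal of the proximal site, where canonical is AATAAA and the main variant is ATTAAA. Among last sites 114 gained and 56 lost, and pairs whose proximal site has the canonical signal split 90 to 94.

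Usage shifted from a first to a last site in several genes. In SCAMP2, a membrane protein of recycling vesicles, the last site (hg19 chromosome 15, position 75136071, signal AATAAA) had 86.9% and 89.9% in siSAM68 libraries, against 52.8% and 60.0% in siCTRL libraries (log2 change 0.64, SE 0.08, limma adjusted p = 0.0211). Its first site, called A-rich, had 13.1% and 10.1% in siSAM68 libraries, against 47.2% and 40.0% in siCTRL libraries. SCARB2, which carries glucocerebrosidase to lysosomes, had 69.2% and 74.4% in siSAM68 libraries, against 45.0% and 41.2% in siCTRL libraries at its last site (hg19 chromosome 4, position 77079890) and 30.8% and 25.6% in siSAM68 libraries, against 55.0% and 58.8% in siCTRL libraries at its first, both with AATAAA. In each of these genes the 2 sites hold all the reads, so gain and loss are 1 event.

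PDIA6, a disulfide isomerase of the endoplasmic reticulum, shifted the same way on the deepest counts of the named genes, 1517 and 1597 reads in siSAM68 and 366 and 717 in siCTRL. Its last site (hg19 chromosome 2, position 10923517) had 37.0% and 39.3% in siSAM68 libraries, against 11.8% and 13.0% in siCTRL libraries (log2 change 1.55, SE 0.24, limma adjusted p = 0.0293), and its first site stayed the main one. TOMM70A, which also rose in level, had 66.5% and 72.7% in siSAM68 libraries, against 42.1% and 44.4% in siCTRL libraries at its last site (log2 change 0.67, SE 0.12, limma adjusted p = 0.0373). In both genes the siSAM68 libraries lay well above the siCTRL libraries.

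MAU2, the cohesin loader subunit, went the other way. Its first site (hg19 chromosome 19, position 19468566, signal ATTAAA) had 45.3% and 50.4% in siSAM68 libraries, against 15.0% and 21.2% in siCTRL libraries (log2 change 1.37, SE 0.24, limma adjusted p = 0.0359), from 20 and 33 reads in siCTRL. GATAD2A, of the NuRD complex, had 49.1% and 50.3% in siSAM68 libraries, against 24.6% and 19.5% in siCTRL libraries at a first site (log2 change 1.15, SE 0.21, limma adjusted p = 0.0388). ACTL6A, an actin-like subunit of SWI/SNF and INO80 complexes that rose in level by 0.98, had 62.0% and 60.7% in siSAM68 libraries, against 90.9% and 76.5% in siCTRL libraries at its last site (log2 change -0.44, SE 0.10, limma adjusted p = 0.0489), from 22 and 34 reads in siCTRL.

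Middle sites changed in further genes. MALAT1, a nuclear noncoding RNA, had 74.9% and 72.0% in siSAM68 libraries, against 40.8% and 42.9% in siCTRL libraries at a site with AATAAA (hg19 chromosome 11, position 65271101; log2 change 0.80, SE 0.08, limma adjusted p = 0.0147). TMED7, a cargo receptor between endoplasmic reticulum and Golgi, had 60.4% and 65.3% in siSAM68 libraries, against 14.8% and 22.0% in siCTRL libraries at a middle site (log2 change 1.74, SE 0.23, limma adjusted p = 0.0229), which the table lists again as an intronic site of the readthrough TMED7-TICAM2. CD164, a sialomucin, had 26.8% and 26.1% in siSAM68 libraries, against 49.3% and 48.0% in siCTRL libraries at a middle site with ATTAAA (log2 change -0.85, SE 0.17, limma adjusted p = 0.0422). RBBP6, a cleavage factor gene that rose in level, has 3 listed sites, of which that coded S had 70.7% and 79.7% in siSAM68 libraries, against 38.3% and 43.4% in siCTRL libraries (log2 change 0.86, SE 0.15, limma adjusted p = 0.0352). PTS, of tetrahydrobiopterin synthesis, gained 0.65 and DPH3, of diphthamide synthesis, 1.37 on the log2 scale at middle sites.

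PRKD1, protein kinase D1, lost usage of its first site, with 37.1% and 35.1% in siSAM68 libraries, against 70.7% and 57.0% in siCTRL libraries (log2 change -0.80, SE 0.16, limma adjusted p = 0.0432). C15orf17 (-0.96) and the pyrophosphate transport gene ANKH (-0.45) lost at first sites and the carbonyl reductase CBR1 (-0.30) at its last. Of the 12 gains and 12 losses named, none kept its call without siSAM68 replicate 1 or replicate 2, and without siCTRL replicate 1 the calls of SCAMP2, SCARB2, GATAD2A and MALAT1 at the gained sites held, with both entries of TMED7.

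At introns, 155 sites were called, 11 of them in genes with at least 20 reads in each of the 4 libraries. They were 112 of 606 sites coded Ic (18.5%) and 43 of 245 coded Is (17.6%), beside 14.6% over all sites, a difference that was not tested. CSTF3, the 77 kDa subunit of the cleavage stimulation factor, has a site in an intron coded Ic (hg19 chromosome 11, position 33162977, signal ATTAAA) that took 74.9% and 81.5% in siSAM68 libraries, against 96.4% and 93.3% in siCTRL libraries (log2 change -0.28, SE 0.06, limma adjusted p = 0.0433). KLHL7, an adaptor of a ubiquitin ligase, lost at 1 intronic site and gained at another: the site at position 23168070 of chromosome 7 had 58.0% and 45.6% in siSAM68 libraries, against 80.7% and 81.0% in siCTRL libraries, and that at 23165669 had 8.67% and 7.97% in siSAM68 libraries, against 1.14% and 0.790% in siCTRL libraries. MSL1, of a histone acetyltransferase complex, had 83.6% and 74.4% in siSAM68 libraries, against 54.2% and 61.2% in siCTRL libraries at an intronic site, and MPHOSPH6, an exosome cofactor, had 0.560% and 0.990% in siSAM68 libraries, against 8.11% and 10.0% in siCTRL libraries at another. MSL1, MPHOSPH6 and the second KLHL7 site were chosen after their values were seen. None of these 4 genes kept an intronic call when either siSAM68 library was left out.

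**Figure D5:**
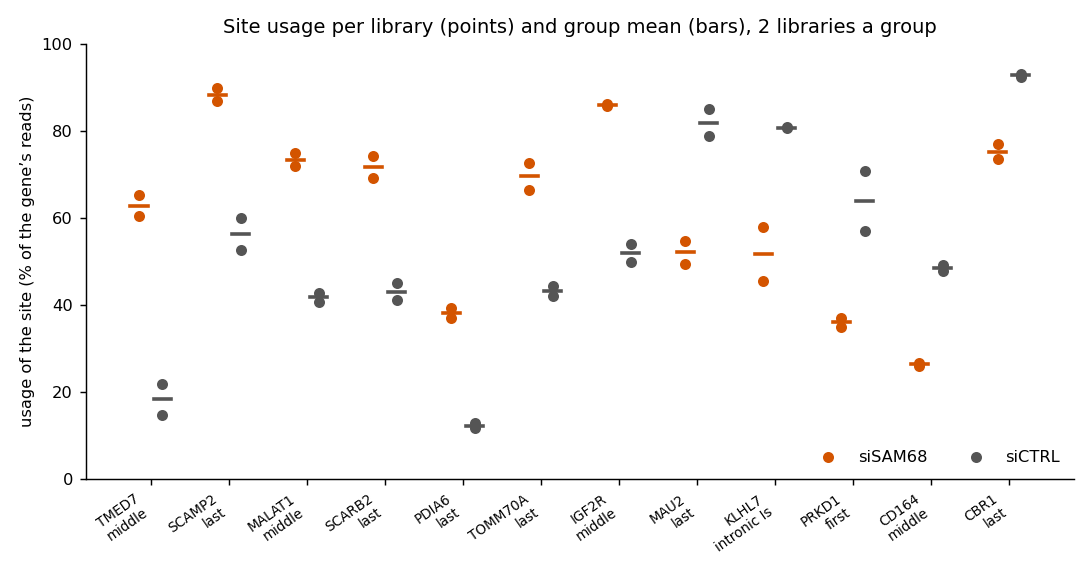
Usage of 12 sites as a percent of the gene's reads (vertical axis from 0 to 100), each library as a point and each group mean as a short bar, with siSAM68 (orange) left of siCTRL (grey), 2 libraries a group. The 7 sites at the left gained usage and the 5 at the right lost it, and in none do the groups overlap. The sites were chosen with their values known, and over all sites the groups do not overlap in 75.5%.

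To follow shifts along the 3′ UTR, the 2 most used first, middle or last sites of a gene were paired, and the ratio of distal to proximal usage was tested. Of 1102 pairs, 443 (40.2%) passed, 256 (23.2%) towards the distal and 187 (17%) towards the proximal site after Sam68 silencing. The median log2 change of the ratio was 0.51 over all pairs, and 598 pairs lay above 0. Groups did not overlap in 928 pairs (84.2%). Counts differed between classes of proximal signal, with no test of the difference. Pairs with a canonical AATAAA at the proximal site split 90 to distal and 94 to proximal of 470 (median -0.05), those with ATTAAA 51 and 35 of 202 (0.84), those with another variant 74 and 38 of 280 (0.77), those with no signal 22 and 12 of 99 (0.66), and A-rich ones 19 and 8 of 51 (1.31). Pairs within 204 bases gave 56 and 47, and those 1648 bases or more apart 61 and 51.

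Calls of pairs were also fewer without single libraries: limma called 1 and 23 pairs without siSAM68 replicate 1 and replicate 2, 104 without siCTRL replicate 1, 125 and 124 without 1 or the other siXRN2 library, 355 without siCTRL replicate 2, and 121 when the 4 libraries were fitted alone. Of the 443 calls, 60 lie among the 181 pairs of genes with recovered counts of at least 20 reads in every library, 40 to distal and 20 to proximal. A separate fit on those 181 pairs alone, with its own adjustment, called 123, 71 to distal and 52 to proximal, with the 60 among them.

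SRSF1, a splicing factor that rose in level by 0.80, had 82.0% and 80.4% in siSAM68 libraries, against 26.6% and 57.7% in siCTRL libraries at the distal site and 1.80% and 2.60% in siSAM68 libraries, against 11.4% and 10.0% in siCTRL libraries at the proximal one, which has no signal (log2 change 2.91, SE 0.63, limma adjusted p = 0.0326). PDLIM5, an actin-associated scaffold, had 78.1% and 82.1% in siSAM68 libraries, against 66.2% and 68.4% in siCTRL libraries at its distal site and 0.720% and 0.630% in siSAM68 libraries, against 8.82% and 9.40% in siCTRL libraries at a proximal site with ATTAAA (log2 change 2.84, SE 0.66, limma adjusted p = 0.0349). TRAM1, of the endoplasmic reticulum translocon, had 56.9% and 64.5% in siSAM68 libraries, against 3.12% and 23.5% in siCTRL libraries at its distal site (log2 change 3.74, SE 1.00, limma adjusted p = 0.0399). In these 3 genes distal usage was higher in both siSAM68 libraries than in either siCTRL library, and the 2 siCTRL libraries of SRSF1 and TRAM1 lay far apart. The proximal site of PDLIM5 had 2 and 2 reads in siSAM68 libraries, against 6 and 11 in siCTRL libraries.

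KIAA0494 (3.36), NAA38 (3.06), SMCR7L (2.94), the mannosidase MANEA (3.07) and the thyroid hormone receptor THRB (3.49) were the other large shifts to distal on the log2 scale of the ratio. The entry NAA38 is described there as the LSM8 homolog, associated with U6 small nuclear RNA. Its proximal site had 0 and 0 reads in siSAM68 libraries, against 3 and 3 in siCTRL libraries. That of KIAA0494 had 3 and 3 against 5 and 8, and that of MANEA 1 and 0 against 1 and 3. THRB rests on a distal site that both siCTRL libraries list at 0 and that had 23.8% and 5.06% in siSAM68. Of these 8 pairs, KIAA0494 alone passed without siCTRL replicate 1, and none passed without siSAM68 replicate 1.

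The 8 largest shifts to proximal ran from -1.94 to -3.11 on the log2 scale of the ratio, where the 8 to distal ran from 2.84 to 3.74. LPHN1, which fell in level, had 56.2% and 38.5% in siSAM68 libraries, against 81.2% and 70.8% in siCTRL libraries at its distal site and 6.25% and 10.3% in siSAM68 libraries, against 3.12% and 0% in siCTRL libraries at an A-rich proximal one (log2 change -2.85, SE 0.83, limma adjusted p = 0.0474). MIOS, of the nutrient-sensing GATOR2 complex, had 23.6% and 12.9% in siSAM68 libraries, against 0% and 3.12% in siCTRL libraries at its proximal site (log2 change -3.11, SE 0.78, limma adjusted p = 0.0368), and the RNA polymerase subunit gene POLR1D had 4.94% and 7.62% in siSAM68 libraries, against 0% and 1.33% in siCTRL libraries (log2 change -2.46, SE 0.64, limma adjusted p = 0.0388). The noncoding LINC00094 had 5.75% and 2.97% in siSAM68 libraries, against 15.0% and 15.0% in siCTRL libraries at its distal site (log2 change -2.01, SE 0.50, limma adjusted p = 0.0366). FAM108C1 (-2.89), WDYHV1 (-2.68), MAU2 (-2.01) and ACTL6A (-1.94) completed the 8 named, of which none kept its call without siCTRL replicate 1 or either siSAM68 replicate. Reads at several of these sites were few. The proximal site of LPHN1 had 2 and 4 reads in siSAM68 libraries, against 1 and 0 in siCTRL libraries. That of POLR1D had 4 and 8 against 0 and 1, that of MIOS 33 and 19 against 0 and 2. That of FAM108C1 had 4 and 7 against 0 and 0, and the distal site of LINC00094 5 and 3 against 3 and 6.

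Both readouts were had for 505 genes. A called site was found in 96 of them, and 60 of these 96 were also among the 287 with a called level. Over all features tested, 58.5% of genes had a called level and 40.2% of pairs were called. A link between the readouts was not tested. Of the 238 genes with a pair and a level, those that rose split 30 to distal, 17 to proximal and 64 not called, those that fell 6, 4 and 22, and those not called for level 20, 7 and 68. IGF2R used its middle site (hg19 chromosome 6, position 160527583, signal AATAAA) at 85.8% and 86.2% in siSAM68 libraries, against 50.0% and 54.0% in siCTRL libraries (log2 change 0.71, SE 0.09, limma adjusted p = 0.0213), and the first site before it at 1.47% and 2.37% in siSAM68 libraries, against 12.5% and 21.6% in siCTRL libraries. INO80C used its last site at 57.4% and 63.6% in siSAM68 libraries, against 22.2% and 23.1% in siCTRL libraries (log2 change 1.38, SE 0.19, limma adjusted p = 0.0238), and ARID5B an intronic site with ATTAAA at 3.57% and 2.63% in siSAM68 libraries, against 33.3% and 19.1% in siCTRL libraries (log2 change -2.69, SE 0.45, limma adjusted p = 0.0325). DBF4, the activator of the CDC7 replication kinase, rose in level (17.0 and 23.1 scaled RPM in siSAM68 libraries, against 2.86 and 6.89 in siCTRL libraries) and gained at an A-rich middle site that both siCTRL libraries list at 0. C14orf149 and C12orf4 both rose by 1.43 and gained usage of 1 site each, at 68.8% and 66.9% in siSAM68 libraries, against 21.4% and 19.1% in siCTRL libraries for the first and 91.0% and 92.0% in siSAM68 libraries, against 66.7% and 73.1% in siCTRL libraries for the second. The siCTRL reads behind these genes are few, 16 and 37 for IGF2R, 9 and 13 for INO80C, 6 and 21 for ARID5B, 2 and 9 for DBF4, 14 and 21 for C14orf149 and 9 and 26 for C12orf4, and TMEM188 and LOC645513, the other 2 with the largest changes, had 5 siCTRL reads or fewer in each library.

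Many changes described above were also seen after XRN2 silencing, measured against the same siCTRL libraries, and limma called 642 of 1938 genes (33.1%) there. Of the 15 largest rises, all but TBK1 and BAZ1A were called there as well. Of the largest falls named above, MMAB, SLCO5A1, ZNF329, ACBD6 and PRR5 were, and the others were not. Median log2 changes after siSAM68 and siXRN2 were 0.53 and 0.48 for cytosolic ribosomal genes and 0.43 and 0.49 for mitosis and G2/M. They were 0.55 and 0.02 for chromatin remodelling and Mediator genes and 0.46 and -0.12 for endoplasmic reticulum stress and folding. The log2 change over siCTRL was 2.10 after siSAM68 and 1.75 after siXRN2 for CAPRIN2, 1.80 after siSAM68 and 1.32 after siXRN2 for CYC1, 2.04 after siSAM68 and 1.02 after siXRN2 for IGF2R, and -1.47 after siSAM68 and -1.33 after siXRN2 for MMAB, all called in both comparisons. NUP188 changed by -1.55 after siSAM68 and by -0.60 after siXRN2, where it missed the threshold (limma adjusted p = 0.0703). The MALAT1 site had 69.2% and 71.2% and the last site of SCAMP2 87.9% and 93.3% in siXRN2 libraries, close to their siSAM68 values. The choice of these genes and sites followed their values, and as both comparisons share the controls, the likeness is not independent evidence.

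Set directly against the siXRN2 libraries, Sam68 silencing gave few calls. The siCTRL libraries drop out of the difference itself but still help set the estimate of its spread. Of 1938 genes, 2 (0.103%) passed limma's threshold, KHDRBS1 and LOC644961, with 450 at an unadjusted p under 0.05. edgeR on recovered reads called 125, and without siXRN2 replicate 1 limma called 333. KHDRBS1 had 53.2 and 27.2 scaled RPM in siSAM68 libraries, against 893 and 566 in siXRN2 libraries. LOC644961 had 50.0 and 41.1 in siSAM68 libraries, against 115 and 137 in siXRN2 libraries, and 277 and 162 in siCTRL libraries, and it lost its call against siXRN2 in 7 of 17 other settings (highest limma adjusted p = 0.270). Limma called 0 sites, with 642 at an unadjusted p under 0.05, and 1 pair. A p that misses the threshold does not show that both knockdowns act alike.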

How the data were processed

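RNA 3′ ends of 6 libraries were measured by 3′READS. Per the submitters' processing notes, cutadapt, Bowtie2 and the build hg19 were used, in versions not given in the sources used here. Deposited by the authors are RPM (reads per 1e6) per gene and library, usage of each site as a percent of the gene's reads, and a score that no source used here defines. Within rounding to 1 decimal, 100% of the 3859, 3872 and 3883 values above 0 were whole multiples of 1 step per group (0.492 RPM in siCTRL, 0.238 in siSAM68, 0.157 in siXRN2), so the deposited RPM is relative to the pooled reads of a group's libraries, and whole reads could be recovered. By rounding alone 20.3%, 42.0% and 63.7% would be. The column suffixes were matched to replicates by the sample descriptions.

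Each library was scaled to the mean listed total of the 3 groups. Expression was tested as log2(scaled RPM + 1) where genes averaged 1 RPM or more, usage as log2(percent + 1) for sites with a mean of at least 1%, and pairs as log2((distal + 1) / (proximal + 1)), so that changes of low values are understated. limma 3.58.1 in R 4.3.3 fitted all 6 libraries in 3 groups with a mean-variance trend (3 residual degrees of freedom), with Benjamini-Hochberg adjustment over all listed features and an adjusted p under 0.05 as the threshold. P-values measure the spread between these libraries. The plan named edgeR's quasi-likelihood test should reads be recoverable. As the deposited unit is RPM, limma stayed the main test, and edgeR 4.0.16 on the recovered reads was an alternative added after seeing the data. It called 1108 genes (575 higher, 533 lower in siSAM68), of which 1054 were shared with limma, all in the same direction. Missing usage values were left out of a site's fit. The fits were tested on simulated data.

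GC content and length came from GENCODE v29 transcripts, matched for 1884 genes by RefSeq identifier and 45 by symbol, 1929 of 1944, and no coordinates were taken from it. Site positions are hg19 as deposited. No source used here defines the site codes; the order first, middle, last held in 1110 of 1110 genes. Genes were named by rule: the 15 largest rises and 15 largest falls among called genes without overlap, with a mean of at least 20 RPM over the 4 libraries and no uncharacterised symbol; up to 3 in each direction per list; the 12 largest gains and losses of sites and the 8 largest shifts of pairs each way in genes with at least 20 reads in each of the 4 libraries; and the 8 largest changes in both tables. Some genes that the rule takes are not reported here. Members, lists and rules were chosen with earlier results of these data known. The labels do not say whether same-numbered replicates of siSAM68 and siCTRL came from a shared experiment. Other scalings, pseudocounts, filters, a GC correction, a replicate block and leaving out each library were tried. Figures were drawn with matplotlib 3.10.9.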

Additional observations from a re-analysis of the deposited data

Results flagged for a closer look

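Sam68 silencing and XRN2 silencing differed, by the direct contrast of siSAM68 minus siXRN2 in the same limma fit, in 2 genes and 1 pair of sites. KHDRBS1 had 53.2 and 27.2 scaled RPM in siSAM68 libraries, against 893 and 566 in siXRN2 libraries, which differ by -4.19 on the log2 scale (SE 0.28, limma adjusted p = 5.63e-07), and it is the gene that siSAM68 targets. LOC644961, an uncharacterised locus, had 50.0 and 41.1 scaled RPM in siSAM68 libraries, against 115 and 137 in siXRN2 libraries, which differ by -1.45 (SE 0.26, limma adjusted p = 0.0468), a call that ended in 7 of 17 other settings, among them without siSAM68 replicate 2 (limma adjusted p = 0.270) or either siCTRL replicate. In ZNF566 the ratio of distal to proximal usage differed by -6.24 on the log2 scale (SE 0.40, limma adjusted p = 0.0184). Its proximal site (hg19 chromosome 19, position 36936802, no signal) had 22.2% and 30.4% in siSAM68 libraries, and both siXRN2 libraries list it at 0. Its distal site (position 36936021, AATAAA) had 22.2% and 21.7% in siSAM68 libraries, against 60.0% and 66.7% in siXRN2 libraries. Against siCTRL, which had 22.2% and 20.0% at the proximal and 33.3% and 20.0% at the distal site, the ratio after siSAM68 missed the threshold (log2 change -0.52, limma adjusted p = 0.292). ZNF566 has no recovered read counts, so the depth behind its usage is unknown.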

How the results depend on the processing

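The direction of the genes named by rule and of the 24 sites and 16 pairs with the largest changes held under each setting run on them. The 1133 expression calls stayed within 1.5 times under each scaling, pseudocount, filter, the GC correction, the replicate block (1148) and edgeR, and ranged from 331 to 1251 with single libraries left out. The 712 site calls fell to 450 with only the 4 libraries compared, 113 with a replicate block, and 0 to 775 with single libraries left out; a separate fit on sites of genes with at least 20 reads called 326, against 60 of the 712 there. The 443 pair calls fell to 121 with the 4 libraries alone, 247 with the block, and 1 to 355 with single libraries left out; the separate fit called 123, against 60 of the 443. The 2 genes called against siXRN2 became 7 with upper-quartile and 30 with median-of-ratios scaling, 1 and 9 with pseudocounts of 0.5 and 5, 6 at a mean of at least 20 RPM, 4 with GC correction, 125 with edgeR, 1 each with 4 libraries alone, no trend or the block, and 1 to 333 with single libraries left out. Fewer libraries, or fewer genes tested, enter some of these fits; the cause of the other shifts was not tested. Deviations of same-numbered siSAM68 and siCTRL libraries correlated at 0.08 across genes and 0.04 across sites. Across genes those of siSAM68 and siXRN2 correlated at 0.18 and those of siXRN2 and siCTRL at 0.002. The numbers were not taken as pairs, and why calls were lost under the block was not tested. The median log2 change of all genes was 0.13, and near 0 by median-of-ratios. Depth limits the site values, siCTRL replicate 1 having the fewest reads. Outside the fits that leave out a library, named genes and list members missed the threshold in 31 of 1815 refits, named sites in 40 of 192 and named pairs in 22 of 96. With the 4 libraries fitted alone, KIAA0494, PDLIM5, FAM108C1 and WDYHV1 were the only named pairs that kept their calls.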
